A study of Mus musculus with 9 samples.

Results

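The transcripts described here are RIKEN cDNA clones whose identifiers carry the prefixes of mouse testis libraries, read in liver. Members were the noncontrol probes of the array whose name starts with the clone prefix 1700, 4921, 4930, 4931, 4932 or 4933, without the 17 whose gene symbol marks an opposite-strand transcript or a named pseudogene by its ending. That left 1114 probes for 1114 clones, of 97836 probes in all, beside 14544 probes for other RIKEN clones. The choice used the probe name and the symbol only, and no measured value. A reference table of RefSeq genes named 377 of the members, in 371 genes, and 737 clones stayed without a name. Of the named members, 256 were long noncoding RNAs (lncRNAs), 111 lay in coding genes, 6 in transcribed pseudogenes and 4 in genes listed as miscellaneous RNA.

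The livers came from 3 groups of C57BL/6J males, a widely used inbred strain, all 20 weeks old and on their diet for 17 weeks. The metformin mice ate a high fat diet that gave 45% of its energy as fat and received metformin, an oral drug for type 2 diabetes, by gavage at 3 mg/kg per day over the last 5 weeks. The high fat diet mice ate the same diet and received saline by gavage over those 5 weeks, and the control mice ate chow, with no gavage recorded in the labels. Each group had 3 pools, each of 4 mice and on 1 array, so that 36 mice contributed, and the spread between pools is smaller than the spread between mice would be. No diet-matched or vehicle-matched chow group with gavage was used here, so diet and gavage cannot be told apart in comparisons with the control mice.

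Testis holds one of the most varied transcriptomes of any mammalian organ. Meiotic cells and spermatids transcribe a great number of genes, many of them noncoding, that other tissues keep low, and cDNA collections made from testis are therefore rich in noncoding clones. A library of origin records where a clone was first copied and does not limit where its gene is transcribed. In liver, a signal for such a clone can come from a widely used promoter, such as one with many CpG dinucleotides, or from a tissue-restricted one.

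Promoter sequences are shown for 4 member genes named in the results below, and a link between these sequences and the group differences was not tested. 1700040G22Rik and 4930533P14Rik are lncRNAs whose clones differed between metformin and control livers. 1700027I24Rik and 4933433G15Rik are lncRNAs that start beside a coding gene on the other strand, Acrv1, which encodes a protein of the sperm acrosome, and Mapk6, which encodes an atypical MAP kinase. Each run covers 250 bases before the annotated start and 50 after it, from RefSeq, and capitals mark the CpG dinucleotides.
1700040G22Rik, GRCm38.p6 chrX:29473626-29473925, plus strand: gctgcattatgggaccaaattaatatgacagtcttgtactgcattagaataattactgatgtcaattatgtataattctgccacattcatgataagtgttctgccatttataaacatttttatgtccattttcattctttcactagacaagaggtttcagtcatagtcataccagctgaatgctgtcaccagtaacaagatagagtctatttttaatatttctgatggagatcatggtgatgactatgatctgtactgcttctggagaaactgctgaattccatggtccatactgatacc
4930533P14Rik, GRCm38.p6 chr1:96662524-96662823, minus strand: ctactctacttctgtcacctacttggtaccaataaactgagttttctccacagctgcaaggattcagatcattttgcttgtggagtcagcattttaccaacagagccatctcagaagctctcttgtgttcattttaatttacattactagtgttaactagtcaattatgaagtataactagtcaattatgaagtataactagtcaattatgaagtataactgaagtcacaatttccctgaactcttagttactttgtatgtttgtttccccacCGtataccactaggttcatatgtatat
1700027I24Rik, GRCm38.p6 chr9:36693140-36693439, minus strand: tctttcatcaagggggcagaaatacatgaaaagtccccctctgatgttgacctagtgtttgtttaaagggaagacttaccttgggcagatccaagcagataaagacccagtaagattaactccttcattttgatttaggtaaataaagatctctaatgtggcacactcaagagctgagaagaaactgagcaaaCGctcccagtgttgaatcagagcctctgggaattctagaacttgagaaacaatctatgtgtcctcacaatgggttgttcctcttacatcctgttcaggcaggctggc
4933433G15Rik, GRCm38.p6 chr9:75409934-75410233, plus strand: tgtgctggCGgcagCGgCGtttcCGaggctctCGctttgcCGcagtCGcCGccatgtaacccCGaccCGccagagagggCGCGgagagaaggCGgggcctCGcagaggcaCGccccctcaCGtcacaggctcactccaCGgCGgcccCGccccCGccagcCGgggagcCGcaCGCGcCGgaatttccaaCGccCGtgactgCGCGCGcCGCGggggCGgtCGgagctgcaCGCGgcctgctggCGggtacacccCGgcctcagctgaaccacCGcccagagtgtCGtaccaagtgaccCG
The first of these sequences holds 0 CpG at a GC content of 35.3%. The promoters of 4930533P14Rik and 1700027I24Rik hold 1 CpG each. That of 4933433G15Rik holds 41 CpG at a GC content of 73.7%, with 3 copies of the GC box, GGGCGG on either strand, which 35.9% of all 27025 promoters in the table hold at least once. A match of letters describes the window and is no site.

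Arrays had between 53.0% and 63.5% of their spots well above background, the extraction software's own test of a spot against its local background. Values below are levels, the log2 signal with the array's 75th percentile set to 0, and a level of 1 probe cannot be set against that of another. Pairs of arrays correlated within groups at 0.986 to 0.988 for metformin, 0.982 to 0.984 for high fat diet and 0.973 to 0.990 for control across tested probes. The first control array stood apart, with 600 of 62036 tested probes more than 2 log2 units above the median of the other 8 arrays, against 19 to 80 on the others. For the members this held for 11 on that array and for 0 to 3 on the others. Slide 1 held the control arrays and high fat diet replicate 1, slide 2 held high fat diet replicates 2 and 3 and metformin replicates 1 and 2, and slide 3 held metformin replicate 3. Metformin and control arrays thus shared no slide.

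Close to 2 in 5 of the clones gave a signal above background in liver. The share averaged 41.2% ± 4.0 over the 9 arrays (SD), against 57.6% ± 3.7 for other RIKEN clones and 59.9% ± 3.3 for all probes. By group it was 40.2% ± 5.4 in metformin, 40.1% ± 2.9 in high fat diet and 43.4% ± 4.1 in control livers (SD, n = 3 pools each). Single arrays gave 45.6%, 34.7% and 40.3% in metformin, 43.4%, 38.1% and 38.9% in high fat diet and 40.8%, 41.3% and 48.0% in control livers. The groups overlapped, and the share of all probes was also highest on control replicate 3 and lowest on metformin replicate 2. The members lay below the other RIKEN clones on each of the 9 arrays. Probes named by RefSeq accessions averaged 43.2% ± 3.9, Ensembl probes 44.6% ± 3.9 and probes for ultraconserved regions 35.4% ± 3.2 (SD over 9 arrays). NONCODE probes averaged 54.3% ± 3.8 and Agilent catalogue probes 71.5% ± 2.5. A low share was thus not particular to the testis-library clones. Negative control spots, whose sequences match no mouse transcript by design, were above background at 1.0% to 2.33% per array.

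**Figure D1:**
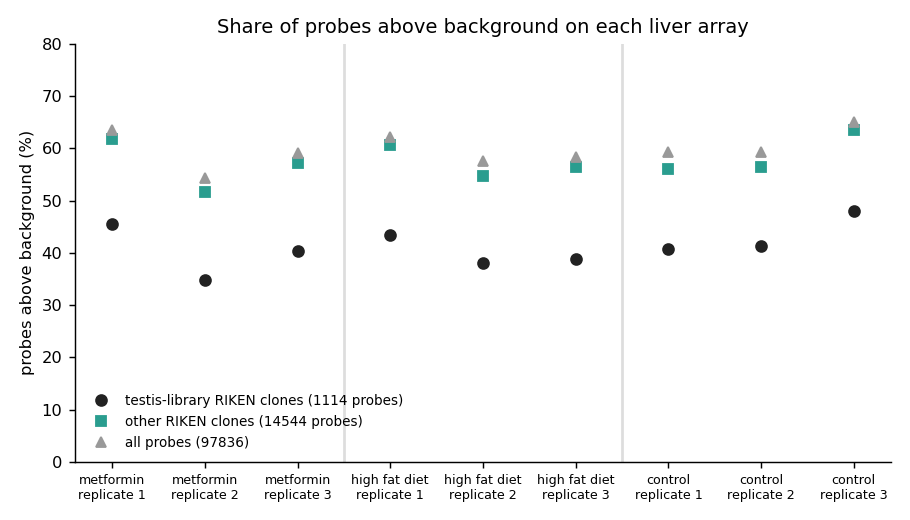
Share of probes above background (%) on each of the 9 arrays, for the 1114 testis-library clones, the 14544 other RIKEN clones and all 97836 probes. The testis-library clones lie between 34.7% and 48.0%, below both other sets on every array, and the groups overlap.

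A probe tended to be above background on all arrays or on none. Of the 1114 members, 345 (31.0%) were above background on all 9 arrays, 143 on 3 to 8, 140 on 1 or 2, and 486 (43.6%) on none. Of the other RIKEN clones 47.1% were above background on all 9 arrays and 31.1% on none. Probes named by RefSeq accessions, at 32.1% and 42.6%, and Ensembl probes, at 33.2% and 41.9%, lay beside the members. On all 3 arrays of a group, 373 members (33.5%) were above background in metformin, 386 (34.6%) in high fat diet and 408 (36.6%) in control livers. Bright members were few: 107 (9.61%) had a mean level above 0, the array's 75th percentile, against 16.9% of other RIKEN clones and 24.9% of all probes. Above a level of 4 the members, at 14 clones or 1.26%, lay beside the other RIKEN clones at 1.19%, and both lay below all probes at 4.28%.

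**Figure D2:**
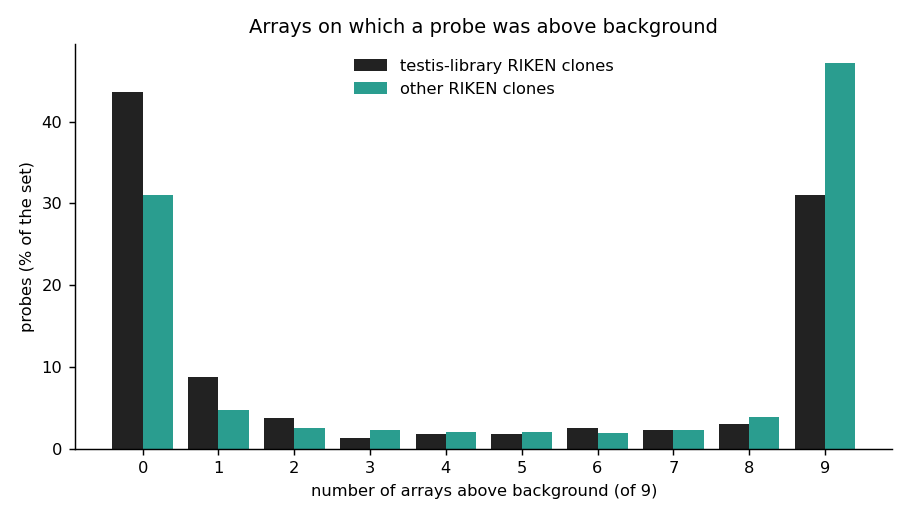
Number of arrays (of 9) on which a probe was above background, as a percentage of each set. Both sets pile up at 0 and at 9 arrays, and the testis-library clones have more of their probes at 0 (43.6% against 31.1%) and fewer at 9 (31.0% against 47.1%).

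The share above background differed among the libraries and gene types. By clone prefix it averaged 58.1% ± 5.3 for the 40 clones of prefix 4931, 44.4% ± 3.9 for the 261 of prefix 1700, 41.7% ± 3.3 for the 86 of prefix 4932, 40.1% ± 4.1 for the 541 of prefix 4930, 37.5% ± 6.2 for the 124 of prefix 4933 and 33.7% ± 4.0 for the 62 of prefix 4921 (SD over 9 arrays). Clones in coding genes were above background at 48.1% ± 5.1, lncRNAs at 36.9% ± 4.3 and unnamed clones at 41.5% ± 3.9. The 6 transcribed pseudogenes reached 68.5% ± 5.6. These shares are over probes of 1 array design, which are not replicates, and were compared without a test.

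The share was also split by position relative to coding genes. Among the noncoding genes, the 34 with a coding gene within 5 kb but no overlap were above background at 51.3% ± 7.7, the 73 that overlap a coding gene at 42.2% ± 5.3, and the 155 with no coding gene within 5 kb at 33.1% ± 2.9 (SD over 9 arrays, neighbours from GRCm38.p6). The 20 that start divergently within 1 kb of a coding start gave 49.4% ± 10.4, against 37.1% ± 3.6 for the 242 others, but the part above background on all 9 arrays was 25% of the divergent and 27.3% of the other genes. The 242 include genes without a listed start, such as 4933406I18Rik at 0.06 kb from Pde3b, for which divergence could not be read. Where a clone overlaps a coding gene, a probe without a known strand or position may read either transcript, and this was not tested.

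Promoter CpG content differed between genes above background on all 9 arrays and on none. Of the 371 member genes 290 had a promoter in the RefSeq table. An observed over expected CpG ratio above 0.6 was found in 39 of 91 promoters (42.9%) of members above background on all 9 arrays, in 25 of 74 (33.8%) of those above it on 1 to 8 arrays, and in 23 of 125 (18.4%) of those above it on none. All promoters of the table gave 36.4%. Split by gene type, the ratio passed 0.6 in 14 of 56 noncoding members on all 9 arrays (25%) and in 10 of 96 on none (10.4%), where all lncRNA promoters gave 14.7%. For coding members it was 25 of 35 (71.4%) on all 9 arrays and 13 of 29 (44.8%) on none, where all coding promoters gave 48.3%. The GC box was in 36.3% of the promoters on all 9 arrays and 20.0% on none. By gene type these were 21.4% and 12.5% for noncoding and 60.0% and 44.8% for coding members, and the motif shares its letters with CpG. The CCAAT box, searched on both strands, was in 36.3% on all 9 arrays and 44.0% on none, beside 37.9% of all promoters. By gene type it was in 44.6% on all 9 arrays and 45.8% on none for noncoding members, and in 22.9% and 37.9% for coding members. The letters CAAAGTCCA, a form of the motif of the liver factor HNF4A, were in 0 of the 290 member promoters and in 0.477% of all promoters.

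**Figure D3:**
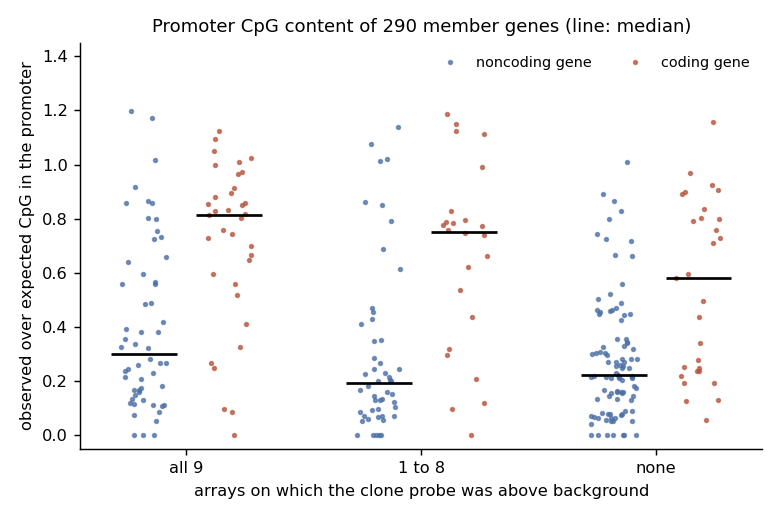
Observed over expected CpG ratio in the 300-base promoter of 290 member genes, by the number of arrays on which the clone's probe was above background. Points are genes, coloured as noncoding or coding, and lines are medians, which for both types are highest for genes above background on all 9 arrays.

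The brightest members kept their level in every pool. 4930586H24, an unnamed clone, stood at 8.56, 8.52 and 8.92 in metformin, 8.61, 8.61 and 8.42 in high fat diet and 8.71, 8.59 and 8.46 in control livers. 4930441F12 lay between 7.97 and 8.38 and 4930417B17 between 7.70 and 8.14 on the 9 arrays, with overlapping groups. Gm6194, a transcribed pseudogene, lay between 7.20 and 7.70. For these 4 probes the log2 differences in the 3 comparisons lay between -0.12 and 0.14.

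1700105P06Rik, a bright lncRNA, had groups that did not overlap in any comparison. It overlaps Spindoc, which encodes a partner of the histone reader Spindlin, but its strand relative to that gene was not known. Its level was 6.80, 6.81 and 7.12 in metformin, 6.40, 6.59 and 6.69 in high fat diet and 6.18, 6.25 and 6.20 in control livers. Each metformin pool lay above each high fat diet pool, and those above each control pool. The log2 difference between metformin and control was 0.70 ± 0.15 (SE), which missed the threshold (adjusted p = 0.063, limma). The other bright clones named by rule were 4930550C20, 4930403L07, 4930402C01, 1700124I24 and 4930546B01, at means between 4.76 and 6.36. Of these, 1700124I24 was at 4.47, 4.54 and 4.51 in metformin, against 5.34, 4.89 and 4.90 in high fat diet and 4.78, 5.21 and 5.26 in control livers. Its metformin pools were the lowest of all, and neither comparison passed (adjusted p = 0.647 against high fat diet and 0.137 against control, limma).

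Group differences were tested with limma on the 62036 probes that were above background on at least 3 of 9 arrays and had a value on every array, with Benjamini-Hochberg adjustment over all of them and a threshold of 0.05. Of the members 488 passed that filter and 486, with a value on every array, were tested, 164 of them named. Among these, 345 were above background on all 9 arrays and 141 on 3 to 8, and a member of the second kind can have passed through the group where it is high. The standard deviation between pools had a median of 0.25 for tested members and 0.24 for all tested probes. It was 0.22 for members above background on all 9 arrays and 0.41 for those on 3 to 8.

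Metformin against control asks what the diet and the drug did together, gavage included. Here 6 members (1.23%) passed, beside 0.546% of all tested probes, with 4 higher (0.823%, beside 0.237%) and 2 lower (0.412%, beside 0.309%) in metformin livers. An unadjusted p under 0.05 was reached by 98 members (20.2%), beside 19.1% of all tested probes, and the groups did not overlap for 143 (29.4%), beside 24.9%. The median member differed by -0.01 and the median probe by -0.01. The count rested on single arrays and on slides. Leaving out control replicates 1, 2 and 3 gave 21, 0 and 2 calls, beside 4.37%, 0.0113% and 0.143% of all tested probes. Without high fat diet replicates 1, 2 and 3 there were 15, 5 and 12, beside 1.09%, 0.3% and 0.941%. Without metformin replicates 1, 2 and 3 there were 0, 1 and 0, beside 0.124%, 0.0774% and 0.00322%. With slide as a fixed block 0 members passed in limma, beside 0 of 62036 tested probes. There 29 members reached an unadjusted p under 0.05, beside 2644 of all tested probes.

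1700040G22Rik, an X-linked lncRNA with no coding gene within 5 kb, fell furthest among the called. Its level was -4.98, -3.85 and -4.31 in metformin, -4.40, -3.39 and -2.53 in high fat diet and -0.97, -1.15 and -1.54 in control livers. All 3 control pools lay above all 6 pools on the high fat diet. It was above background on 0 metformin arrays, 1 high fat diet array and 3 control arrays, so it entered the test through the group where it is high. The means were -4.38 ± 0.57 in metformin and -1.22 ± 0.29 in control livers (SD, n = 3 pools each), and it was at least 7.88-fold lower in metformin livers (adjusted p = 0.0285, limma). That bound sets the control mean against the lowest signal measured above background on each metformin array, or the probe's own where higher. Across 19 alternatives the log2 difference was negative each time and passed in 13, and its size lay between -4.63 with slide as a fixed block and -0.92 with normexp. Normexp is another background correction that adds an offset of 50 intensity units, and there the difference is smaller than the bound.

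4933430H07, an unnamed clone, was lower too. It stood at -5.11, -4.94 and -5.31 in metformin, -4.60, -5.18 and -4.25 in high fat diet and -2.02, -2.70 and -3.38 in control livers. It was above background on the 3 control arrays and on no other, so it entered the test through the group where it is high. It was at least 2.83-fold lower in metformin livers, from means of -5.12 ± 0.19 in metformin and -2.70 ± 0.68 in control livers (SD, n = 3 pools each; adjusted p = 0.0287, limma). It passed in 12 of 19 alternatives, and with normexp the log2 difference was -0.47, smaller than the bound, and did not pass.

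The 4 higher clones had levels between -3.28 and 0.23. 4930517O19, unnamed, stood at -0.92, -1.21 and -1.14 in metformin, -1.37, -1.26 and -1.35 in high fat diet and -2.28, -2.09 and -2.18 in control livers. Both groups on the high fat diet lay clear of the control pools, and the log2 difference of metformin and control was 1.09 ± 0.13 (SE, adjusted p = 0.0193, limma). It passed in 13 of 20 alternatives, at 0.59 with normexp. 4930533P14Rik is a lncRNA whose nearest coding gene, 153.7 kb away, is Slco4c1, an organic anion transporter gene. It stood at 0.11, 0.04 and 0.23 in metformin, -0.32, -0.04 and -0.04 in high fat diet and -1.20, -0.99 and -0.78 in control livers. Its groups followed the same order without overlap, with a difference of 1.11 ± 0.16 (SE, adjusted p = 0.0302, limma), passing in 14 of 20 alternatives.

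4930549G23Rik is a lncRNA that overlaps Seh1l, a nuclear pore gene, and its strand relative to that gene was not known. Its level was -1.84, -2.13 and -2.03 in metformin, -2.28, -2.47 and -2.70 in high fat diet and -3.15, -3.28 and -2.85 in control livers. The difference of metformin and control was 1.1 ± 0.17 (SE, adjusted p = 0.0376, limma), and it passed in 10 of 19 alternatives, at 0.49 with normexp. Only 1 of 3 control arrays had it above background. 4933424L07, unnamed, stood at -1.24, -1.93 and -1.24 in metformin, -2.46, -3.12 and -2.65 in high fat diet and -2.96, -3.21 and -2.76 in control livers. Here the metformin pools stood alone and the high fat diet pools overlapped the control pools. The difference of metformin and control was 1.51 ± 0.24 (SE, adjusted p = 0.0381, limma), and 1.28 ± 0.24 against high fat diet (adjusted p = 0.396). With normexp these were 0.75 and 0.65.

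**Figure D4:**
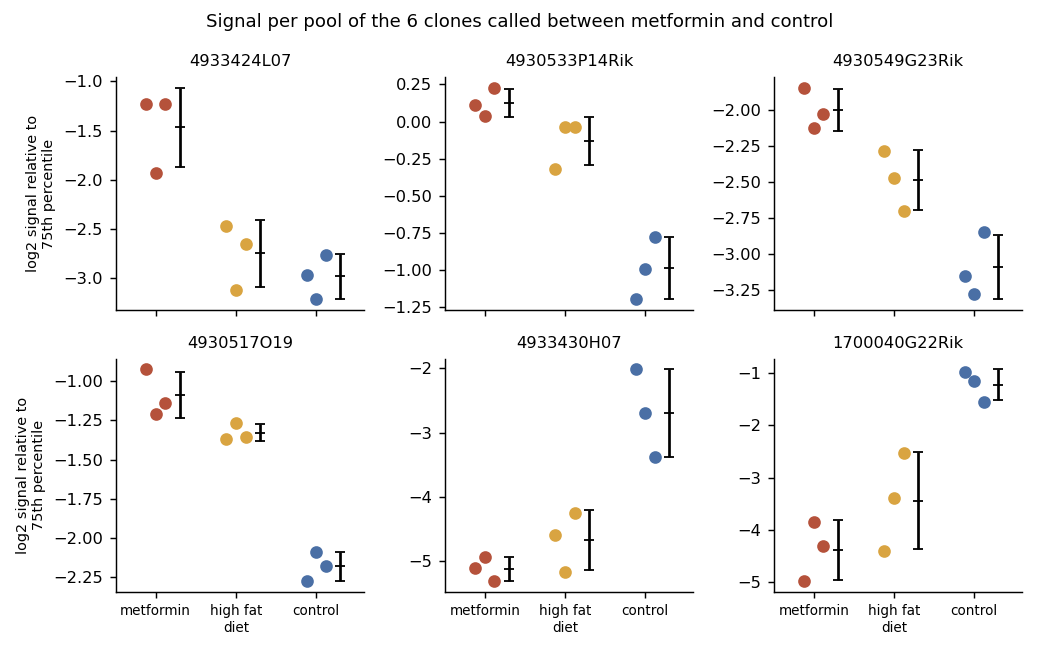
Level (log2 signal, with the 75th percentile of each array at 0) of the 6 members with an adjusted p under 0.05 between metformin and control, per pool, with metformin left, high fat diet in the middle and control right. Points are pools, bars are the group mean ± SD (n = 3), and each panel has its own axis. In every panel the metformin and control pools do not overlap.

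Several members lay just outside the threshold in this comparison. 4931422A03Rik, annotated as coding and overlapping Fbxo3, which encodes a ubiquitin ligase subunit, differed by 0.88 ± 0.16 (SE, adjusted p = 0.0507, limma). 4930518C09 differed by -1.0 ± 0.18 (adjusted p = 0.0524) and 4930534K07 by -1.28 ± 0.24 (adjusted p = 0.0541). 4933406F09Rik, a lncRNA, differed by -2.38 ± 0.46 (adjusted p = 0.0559), with a first control pool at 0.18 above the -1.25 and -1.51 of the others.

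**Figure D5:**
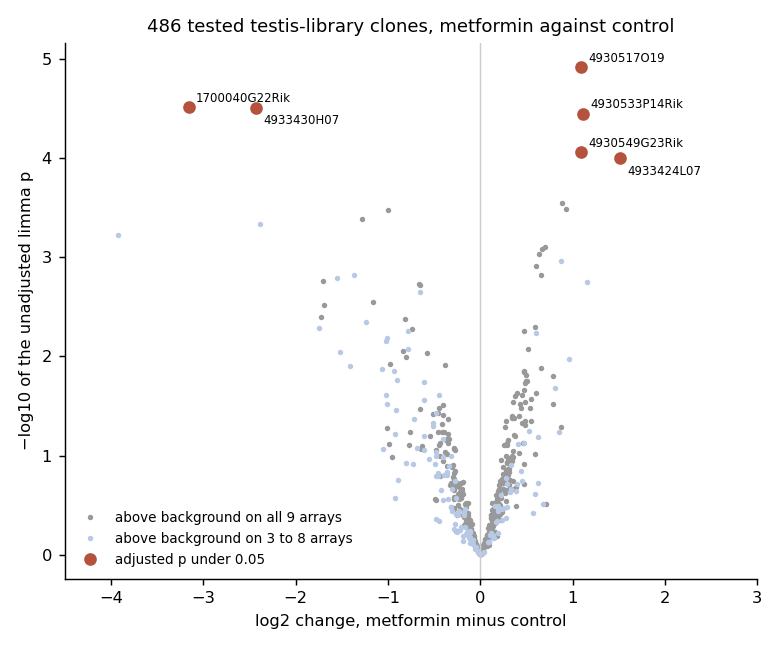
Log2 change of the 486 tested members between metformin and control (x axis) against -log10 of the unadjusted limma p (y axis). The 6 members with an adjusted p under 0.05 are labelled, with 4 on the right and 2 on the left. Light points are members above background on 3 to 8 arrays.

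High fat diet against control asks for the effect of the diet, with its gavage. In limma 0 of 486 members passed, beside 0.0451% of all tested probes. At an unadjusted p under 0.05 there were 85 members (17.5%), beside 12.1% of all tested probes. Of these 34 (7.0%, beside 4.88%) were higher and 51 (10.5%, beside 7.20%) lower in high fat diet livers. The groups did not overlap for 94 (19.3%), beside 15.4%. Without high fat diet replicate 1 the count was 6, all lower, beside 0.477% of all tested probes. Of those 296 called probes 267 were lower. With slide as a random block the count of members was 5, beside 0.326% of all tested probes. Under the other 18 alternatives it was 0. The median member differed by -0.04, and by 0.04 with the array median subtracted in place of the 75th percentile, where the median over all probes was 0.07.

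The control arrays are shared by both comparisons with control, so the values are set side by side. Between high fat diet and control, 4930517O19 differed by 0.85 ± 0.13 (SE, adjusted p = 0.0792, limma), the lowest adjusted p of the members. 4933430H07 was at least 2.89-fold lower in high fat diet livers (adjusted p = 0.0892), at means of -4.67 ± 0.47 in high fat diet and -2.70 ± 0.68 in control livers (SD, n = 3 pools each), and differed by -0.50 on the log2 scale with normexp. 1700040G22Rik differed by -2.22 ± 0.43 (adjusted p = 0.123) and 4930533P14Rik by 0.86 ± 0.16 (adjusted p = 0.110). With normexp 4930517O19 differed by 0.39, 1700040G22Rik by -0.81 and 4930533P14Rik by 0.64. None of the 4 passed between high fat diet and control.

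Other members led the diet comparison without passing. 4930588K23Rik is a lncRNA whose nearest coding gene, 10.57 kb away, is Gp1bb, a platelet receptor gene. It stood at -0.84, -1.17 and -1.29 in metformin, -0.99, -1.07 and -1.15 in high fat diet and -2.27, -1.80 and -2.0 in control livers. Both groups on the high fat diet lay at one height, above all control pools, with a difference of high fat diet and control of 0.96 ± 0.17 (SE, adjusted p = 0.109, limma). 4930534K07 stood at -0.11, 0.41 and 0.02 in metformin, 0.33, -0.15 and 0.22 in high fat diet and 0.99, 1.30 and 1.86 in control livers, so that the control pools were all higher (difference of high fat diet and control -1.25, adjusted p = 0.123). 4930504D19Rik is a lncRNA whose nearest coding gene, 35.09 kb away, is Cyp26b1, a retinoic acid hydroxylase gene. It differed by 1.29 ± 0.30 (adjusted p = 0.172, limma), 4921514A10 by 0.73 ± 0.19 (adjusted p = 0.198) and 4933402M05 by -0.97 ± 0.21 (adjusted p = 0.155). On slide 1, with 1 high fat diet and 3 control arrays, the difference was 0.82 for 4930517O19 and -3.18 for 1700040G22Rik, and its sign was fixed by the choice of members whose groups do not overlap.

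Metformin against high fat diet asks for the effect of the drug on the diet. In limma 0 of 486 members passed, beside 0.00645% of all tested probes, and 0 passed under any of the 20 alternatives. At an unadjusted p under 0.05 there were 24 members (4.94%), beside 6.64%, and the groups did not overlap for 54 (11.1%), beside 16.2%. 4933424L07, given above, had the lowest adjusted p at 0.396. Next came 4933433G15Rik, the lncRNA beside Mapk6, at -1.10, -1.84 and -1.18 in metformin, against -2.49, -2.86 and -1.91 in high fat diet and -2.50, -2.32 and -2.76 in control livers. The metformin pools were all above the others, at a difference of metformin and high fat diet of 1.04 ± 0.27 (SE, adjusted p = 0.547, limma). 4930509J09Rik stood at -3.01, -2.93 and -2.68 in metformin, -3.25, -4.52 and -3.92 in high fat diet and -2.07, -2.81 and -2.68 in control livers. Its high fat diet pools were below background and lowest of all. By the rule used for 1700040G22Rik it came out 1.82-fold higher in metformin livers, from means of -2.87 ± 0.17 in metformin and -3.90 ± 0.64 in high fat diet livers (SD, n = 3 pools each). Only 2 of 3 metformin arrays had it above background, so this fold is no firm lower bound. It did not pass (adjusted p = 0.599), and differed by 0.35 on the log2 scale with normexp. 1700018H16 differed by 0.90 ± 0.24 (SE, adjusted p = 0.566), 4930403I12 by -0.63 ± 0.18 (adjusted p = 0.570), 4930453C13 by -0.63 ± 0.24 (adjusted p = 0.696) and 4932701E15 by -0.48 ± 0.20 (adjusted p = 0.724). Within slide 2, with 2 arrays of each group, 4933424L07 differed by 1.30, again with a sign fixed by the choice.

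Some members were above background on all 3 arrays of 1 group and on no array of another. This was so for 7 members above background in control and not in metformin livers (0.628%), beside 0.528% of all probes, and for 3 above it in control and not in high fat diet livers (0.269%), beside 0.280%. The other 4 directions had 0 members each, beside 0.0542% of all probes for metformin over high fat diet, 0.0695% for metformin over control and 0.0521% for high fat diet over each of the others. 4933430H07 showed both patterns.

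4933429K06, an unnamed clone, showed the widest such gap. Its level was -3.58, -3.42 and -4.59 in metformin, -0.17, -0.83 and -3.83 in high fat diet and 0.45, -0.48 and 0.21 in control livers. A pair of high fat diet pools lay near the control pools and the other near the metformin pools. It was at least 13.9-fold lower in metformin than in control livers, from means of -3.87 ± 0.63 in metformin and 0.06 ± 0.48 in control livers (SD, n = 3 pools each), and missed the threshold (adjusted p = 0.0588, limma). The log2 difference was -1.89 with normexp, where it passed, and -1.40 with slide as a fixed block, both smaller than the bound. 1700027I24Rik, the lncRNA beside Acrv1, stood at -4.41, -3.83 and -3.68 in metformin, -2.58, -4.21 and -3.46 in high fat diet and -2.27, -2.67 and -2.31 in control livers, and was at least 2.94-fold lower in metformin than in control livers (adjusted p = 0.0769). 4930579D07, 4930553I03 and 4930533L04 were at least 2.5-fold, 2.08-fold and 1.99-fold lower in metformin than in control livers (adjusted p between 0.0750 and 0.155). 1700110I07Rik was at least 2.21-fold lower in high fat diet than in control livers (adjusted p = 0.199), and 4930509J09Rik at least 2.33-fold lower (adjusted p = 0.159). With normexp the log2 differences of these 6 clones were between -0.38 and -0.13, smaller than their bounds. Each of them, and 4933429K06, was above background on all 3 control arrays, so they entered the test through the group where they are high.

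Clones inside coding genes with names of their own numbered 99, and the 10 named by rule did not pass in any comparison. Cpb2 encodes carboxypeptidase B2, a liver-made brake on clot breakdown. Its clone stood at -3.62, -3.17 and -2.60 in metformin, -2.71, -1.66 and -3.38 in high fat diet and -4.01, -3.79 and -4.16 in control livers, above background on 1, 2 and 0 arrays of these groups. By the rule used for 1700040G22Rik it came out 2.61-fold higher in high fat diet than in control livers (adjusted p = 0.214, limma). With 1 high fat diet pool itself below background, this fold is no firm lower bound. The log2 difference was 0.36 under normexp, and a clone inside a gene need not read the gene's mRNA. Prelid2, from a family of mitochondrial lipid transfer proteins, differed by 0.97 ± 0.28 between high fat diet and control (SE, adjusted p = 0.223). Rbm42, an RNA-binding protein gene, differed by -0.51 ± 0.15 (adjusted p = 0.233), Slc29a3, a lysosomal nucleoside transporter gene, by -0.67 ± 0.22 (adjusted p = 0.277) and Tmem183a by -0.39 ± 0.16 (adjusted p = 0.377). Between metformin and control, Mindy1, a deubiquitinase gene, differed by 0.79 ± 0.27 (adjusted p = 0.163), Tmem214 by 0.48 ± 0.16 (adjusted p = 0.157) and Mfsd13a by -0.48 ± 0.20 (adjusted p = 0.232).

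The clone in Smap1, a GTPase-activating protein gene of membrane traffic, stood at -0.27, -0.58 and -0.43 in metformin, -0.96, -0.78 and -1.24 in high fat diet and -0.95, -0.80 and -0.95 in control livers. Its metformin pools were all higher, at a difference of metformin and high fat diet of 0.57 ± 0.16 (SE, adjusted p = 0.573, limma). A second Smap1 probe, for a RefSeq noncoding transcript, differed by -0.05 (adjusted p = 0.986). Slc6a21 differed by -0.52 ± 0.18 in the same comparison (adjusted p = 0.664).

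Probes of 1 gene could disagree. For 46 members another probe on the array carried the same gene's name, giving 41 pairs. Both probes were above background on all 9 arrays in 7 pairs, both on none in 10, and in 8 pairs 1 probe was above background on all 9 arrays and the other on none. Hydin, which encodes a protein of the central pair of motile cilia, had a member above background on 9 arrays at a mean level of 3.18 and another on none. Across a gene's probes, a signal is therefore a reading of that probe's target and not of the whole gene.

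Lists of germ cell and cilium genes could hardly be read through the names at hand. Of 66 germ cell genes 2 were named, both through RIKEN clones. The member in Msh4, a meiotic recombination gene, was above background on 2 arrays, a clone in Rfx2, a factor of spermatid development that is no member, was so on 0, and neither was tested. Of 85 cilium and sperm tail genes 5 were named through 6 probes, 3 of them members. Of the 6 probes 3 were tested and 0 passed in limma in any comparison, with 0 at an unadjusted p under 0.05. Those 3 were the bright Hydin member, with differences of -0.27 for metformin and control, -0.32 for metformin and high fat diet and 0.04 for high fat diet and control, Cfap77, and Cfap57, which is no member. Of the hepatocyte markers Hnf4aos, the antisense partner of a liver factor gene, was named, and its 2 probes were above background on all 9 arrays. The defining markers of spermatids, macrophages, endothelium, stellate cells, cholangiocytes and lymphocytes had no named probe, so the part of other cell types was not tested, and in whole liver fewer cells of a type and less RNA per cell cannot be told apart.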

How the data were processed

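Liver RNA was hybridised to 9 single-colour Agilent arrays, 3 pools per group as given in the labels. The authors extracted spot signals with Agilent Feature Extraction, version 11.5.1.1 per the file headers and 10.7 per the submitters' processing notes. The deposited processed signal is a linear intensity, already background-subtracted per the file headers. A deposited table of the series holds log2 values and was checked to be the same signal less each array's 75th percentile. The header names build mm9. RefSeq tables on GRCm38.p6 gave names, neighbours and promoter sequences. Probe sequences were not used here.

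Outlier spots and controls were removed, log2 signals of the 1 or 2 spots per member probe were averaged, and the 75th percentile of the array was taken off. Above background on an array meant that 0.5 or more of a probe's spots passed the software's test, and probes above it on 3 or more of the 9 arrays entered the fit. limma 3.58.1 in R 4.3.3 was fitted to all 9 arrays by group, after being tested on simulated data. Arrays give no counts, and their number limits the precision. The labels call the pools separate samples, and p-values measure the spread between them. Replicate numbers did not pair the samples, since deviations of arrays with the same number correlated at -0.094 to 0.128.

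Alternatives were the spread of the 6 arrays compared, normexp, quantile normalization, the array median, no filter, a filter on all 9 arrays, slide as a fixed or random block, the replicate number as a block, array weights, an intensity trend and leaving out each array. The mean signal named in the plan for normexp is not among the columns used here, so the median signal took its place. Named members were those called, the 5 higher and 5 lower with the lowest p among those with groups that do not overlap in each comparison, the 10 brightest, those above background in 1 group and not in another, the 10 own-name coding genes with the lowest p, and 1700040G22Rik. Members, lists and rules were chosen with earlier results of these data known.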

Additional observations from a re-analysis of the deposited data

How the results depend on the processing

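The counts of called members were 0 for metformin against high fat diet under all 20 alternatives run. For metformin against control the count was 6, and it was 9 with quantile normalization, 8 with the array median, 5 without a filter and 9 with the filter on all 9 arrays. It moved to 15 with the spread of the 6 arrays compared, 12 with normexp, 20 with an intensity trend, 51 with array weights, 72 with slide as a random block (consensus correlation -0.17) and 0 with slide as a fixed block. Leaving out 1 array gave 0 to 21. Similar counts did not always mean the same members. All 6 calls were kept with quantile normalization and with the array median. Without a filter 3 of the 5 calls were among the 6. There 1 call was higher and 4 were lower in metformin livers, against 4 higher and 2 lower before. With the filter on all 9 arrays 2 of the 9 calls were among the 6. Calls above background on fewer arrays could not enter that filter. For high fat diet against control the count of 0 moved to 5 with slide as a random block, beside 0.326% of all tested probes. Leaving out 1 array gave 0 to 6, beside 0.0% to 0.477%. With the replicate number as a block 3 members passed between metformin and control, beside 0.127% of all tested probes. The numbers did not pair the samples, and the block changed the count of neither other comparison. The causes were not tested.

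Expressed on at least 2 of 3 arrays were 39.9% of members in metformin, 39.1% in high fat diet and 42.4% in control livers, in place of 33.5%, 34.6% and 36.6% on all 3. Differences of 3 dim clones changed sign. 1700110I07Rik, at 0.12 between metformin and high fat diet, gave -0.017 with the fixed slide block and -0.13 to 0.38 with 1 array left out. 4930533L04, at -0.35 between metformin and high fat diet, gave 0.046 with normexp, 0.14 with the fixed slide block and -0.55 to 0.026 with 1 array left out, and at -1.06 between metformin and control it gave 0.17 with the fixed slide block. 4933430H07, at -0.45 between metformin and high fat diet and below background in both, gave 0.023 with normexp. Levels near background limit these.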
